A study of Homo sapiens with 12 samples.

Results

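The S100 proteins are small calcium sensors, and 10 of their genes (S100A1, S100A2, S100A4, S100A6, S100A10, S100A11, S100A13, S100A16, S100B and S100P) were looked up by symbol among the 12616 genes listed for this study. Of these, 8 were listed, whereas S100A2 and S100A4 were not and are not analysed here. In MeWo cells depleted of MITF, 5 of the 8 genes were higher (S100B, S100A6, S100A1, S100A13 and S100A16) and S100A11 was lower. Over all genes 8.58% were called higher and 8.12% lower. The call of S100A11 was lost under 7 of 23 alternative analyses and that of S100A16 under 4. Those of S100A1 and S100A13 were lost with MeWo fitted alone. In SkMel28 cells S100B, S100A6 and S100A10 were higher, beside 5.88% of all genes. S100B and S100A6 were therefore called higher in both lines, as were 1.91% of all genes. S100A1, S100A13 and S100B changed by different amounts in MeWo and SkMel28, and such a difference was called for 7.09% of all genes. A different change was also called for S100A10, but this call was lost under 15 of 22 alternative analyses.

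S100 proteins have a pair of EF-hand calcium-binding loops and mostly act as dimers. On binding calcium a dimer opens a hydrophobic face and docks onto a target, for example an annexin, a cytoskeletal protein, p53 or, outside the cell, the receptor RAGE. S100B is a long-used tissue and serum marker of melanocytic tumors, and S100A6, S100A10, S100A11, S100A13 and S100A16 are expressed in many tissues.

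MeWo and SkMel28 are human cutaneous melanoma cell lines. Both carried a doxycycline (Dox)-inducible knockdown of MITF, the transcription factor that directs the melanocyte lineage, and the study's text names the reagent as a short hairpin RNA. Cells received 0 µg/ml Dox (control) or 1 µg/ml Dox for 8 days, which gave 4 groups (MeWo control, MeWo Dox, SkMel28 control and SkMel28 Dox) of 3 libraries each, or 12 in all. RNA was read at the 3′ ends of polyadenylated transcripts, so that each transcript gives about 1 tag whatever its length. The control cells also carried the hairpin construct, no cells without the hairpin were given Dox, and whether each line was a single clone or a pool is not given in the sources used here. A change with Dox is thus that of the hairpin and the drug together. The labels give EMEM as the medium of MeWo and RPMI as that of SkMel28, whereas the methods of the study give RPMI for both. If the labels hold, a difference between the lines cannot be told apart from one between the media. The labels do not say that replicates came from separate cultures, so p-values measure the spread between these libraries, which may be technical.

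Values are normalised reads per 1000000 of effective library size, and totals ran from 2568187 to 3714608 reads per library, 1 read being worth 0.278 to 0.389. Differences are log2 of (value + 1) with a standard error (SE), and a gene was called when its adjusted p (limma, Benjamini-Hochberg over all 12616 genes) was under 0.05. All 9 melanocytic markers examined were listed, with PMEL at 7450 and 6562 in MeWo and SkMel28 controls. Of 14 fibroblast, epithelial and immune markers 4 were listed, and none of the 4 was called higher with Dox. LUM had a mean of 44.4 in MeWo control and 12.6 in MeWo Dox, and CD68 had means of 86.7 and 20.4 in SkMel28. Replicate 1 of MeWo Dox stood apart from replicates 2 and 3 (correlation across genes 0.960 and 0.969, against 0.976 between the other two and 0.979 to 0.985 within the other groups). Changes of the S100 genes in MeWo are therefore also given without it. In bulk RNA, fewer cells expressing a gene and less of its RNA per cell cannot be told apart.

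MITF itself was first compared, as the hairpin's target. MITF stood at 657, 663 and 708 in MeWo control, against 451, 354 and 371 with Dox. In SkMel28 it stood at 861, 739 and 792, against 575, 578 and 552. The control and Dox libraries did not overlap in either line, and MITF mRNA remained well above 0 in every Dox library. It fell by 0.79 on the log2 scale in MeWo (adjusted p = 6.49e-05) and by 0.49 in SkMel28 (adjusted p = 0.00705). Replicate 1 of MeWo Dox, the library that stood apart, had the highest MITF value of its group, and without it the MeWo difference was -0.90.

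S100B had the largest rise of the 8 genes in both lines. It lies on chromosome 21 (46598604 to 46605208, minus strand, hg38), apart from the S100 cluster on chromosome 1. MeWo control libraries held 65.7, 63.7 and 59.3 normalised reads of S100B, and MeWo Dox libraries held 251, 251 and 241. SkMel28 control libraries held 536, 481 and 513, and SkMel28 Dox libraries held 1059, 1118 and 1193. Dox libraries were above control libraries in both lines, and every SkMel28 control library was above every MeWo Dox library. The rise was 1.96 ± 0.099 (SE) on the log2 scale in MeWo (adjusted p = 1.91e-09), or 3.94-fold by group means, and 1.14 ± 0.099 in SkMel28 (adjusted p = 9.67e-07), or 2.20-fold. The changes differed by 0.82 ± 0.14 (adjusted p = 0.00198), with the greater change in MeWo, where the gene started lower. Both rises and their difference were called under every alternative tried, and without replicate 1 of MeWo Dox the MeWo rise was 1.95.

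S100A6 (calcyclin) binds annexins and CACYBP and was first cloned as a gene induced by growth factors. It lies in the S100 cluster (chromosome 1, 153534599 to 153536244, minus strand). In MeWo it was at 1375, 1367 and 1285 in control and at 2504, 3535 and 3253 with Dox. In SkMel28 it was at 228, 244 and 254 in control and at 433, 444 and 450 with Dox. The lowest MeWo control library exceeded the highest SkMel28 Dox library, and Dox libraries were higher in each line with no overlap. S100A6 rose by 1.19 ± 0.12 in MeWo (adjusted p = 1.76e-06) and by 0.87 ± 0.12 in SkMel28 (adjusted p = 9.58e-05). The difference between these rises was 0.32 (95% interval -0.028 to 0.67) and was not called (adjusted p = 0.238). Without replicate 1 of MeWo Dox the rise in MeWo was 1.34 and the difference became 0.47 (adjusted p = 0.00613). By group means S100A6 ranked 88th of 12616 genes in MeWo control and 42nd in MeWo Dox.

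**Figure D1:**
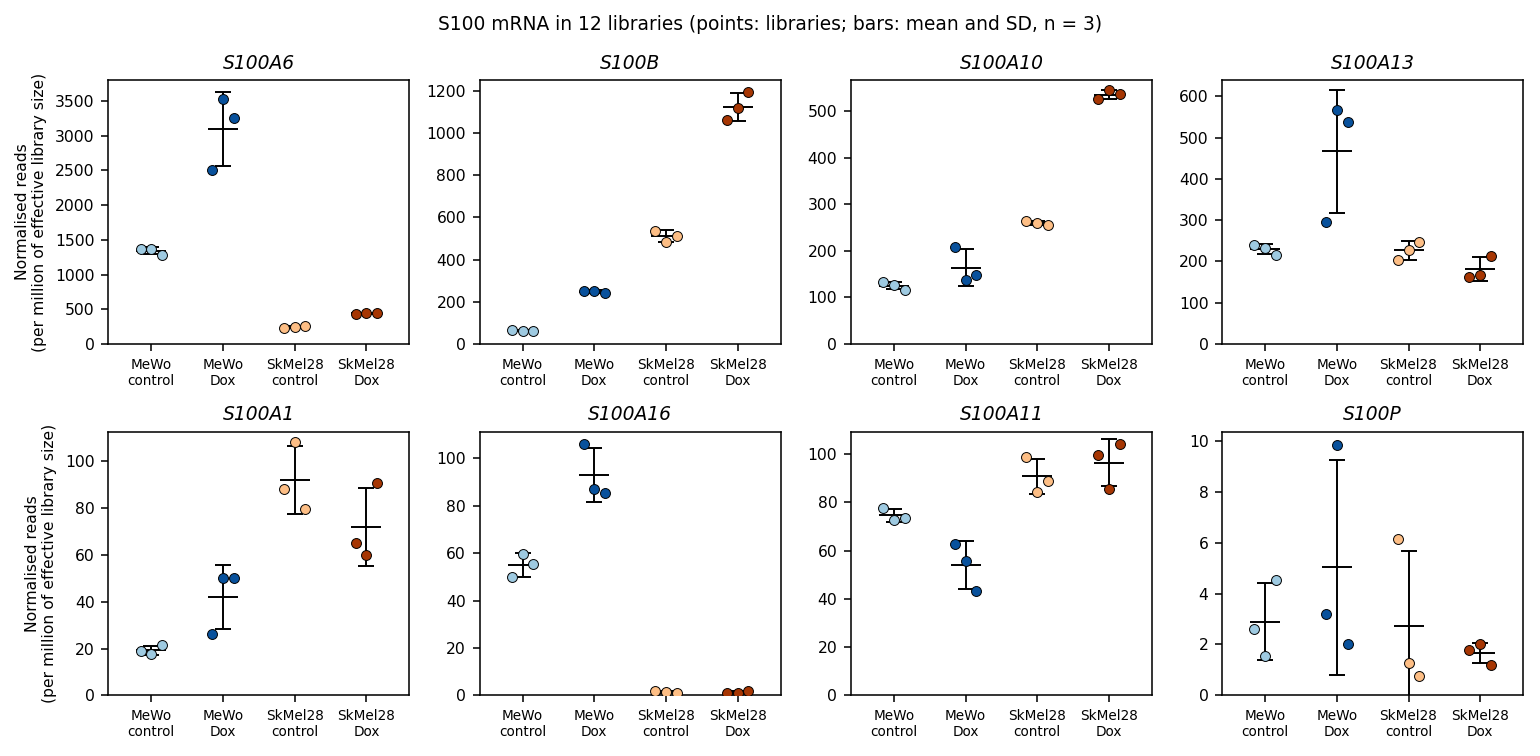
Normalised reads (per 1000000 of effective library size, linear axes from 0) of the 8 listed S100 genes in each of the 12 libraries, by line and Dox. Points are libraries, horizontal bars are group means and vertical bars are SD (n = 3; the bar of S100P in SkMel28 control is clipped at 0). S100B and S100A6 are higher with Dox in both lines with no overlap, and S100A16 is near 0 in SkMel28.

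S100A10 and S100A11 are the classic annexin partners of the family. S100A10 (p11) has lost calcium binding and forms a standing tetramer with annexin A2, the product of ANXA2, at the plasma membrane, where the tetramer also binds the scaffold AHNAK. S100A11 binds annexin A1. The gene S100A10 (chromosome 1, 151982915 to 151993859, minus strand) was at 265, 260 and 257 in SkMel28 control and at 527, 545 and 537 in SkMel28 Dox. It was at 133, 127 and 117 in MeWo control and at 209, 137 and 147 in MeWo Dox. The SkMel28 groups were tight and far apart, whereas in MeWo the groups did not overlap but replicates 2 and 3 with Dox lay just above the control libraries. S100A10 rose by 1.04 ± 0.13 in SkMel28 (adjusted p = 5.01e-05). In MeWo the difference was 0.36 ± 0.13 (95% interval 0.083 to 0.64) and was not called (adjusted p = 0.0711). It was called in MeWo with DESeq2, with scaling to the spike-ins, with the trend in GC content removed and without replicate 2 of MeWo Dox, and without replicate 1 it was 0.18. The change in MeWo was less than that in SkMel28 by 0.68 ± 0.19 (adjusted p = 0.0384), a call that was lost under 15 of 22 alternatives, in which the adjusted p reached 0.486.

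The binding partners of S100A10 were compared in the same libraries. ANXA2 was at 194, 136 and 173 in SkMel28 control and at 342, 345 and 358 in SkMel28 Dox, a rise of 1.07 ± 0.16 (adjusted p = 0.000180). AHNAK was at 150, 169 and 156 in SkMel28 control and at 246, 261 and 238 with Dox, a rise of 0.64 ± 0.11 (adjusted p = 0.000876). In both genes the SkMel28 Dox libraries lay above the control libraries, as for S100A10. In MeWo, ANXA2 was at 291, 304 and 290 in control and at 316, 213 and 198 with Dox (log2 difference -0.31, adjusted p = 0.183), and AHNAK was at 93.3, 86.6 and 82.3 and then at 83.0, 72.8 and 73.8 (-0.19, adjusted p = 0.263). Neither was called in MeWo, and the MeWo groups overlapped in both genes. The change in MeWo was lower than that in SkMel28 for ANXA2 (log2 difference -1.38 ± 0.22, adjusted p = 0.00130) and for AHNAK (-0.83 ± 0.16, adjusted p = 0.00399). The ANXA2 difference was called under all 22 alternatives, and that of AHNAK under 21, the exception being scaling to the spike-ins (adjusted p = 0.235). Without replicate 1 of MeWo Dox, ANXA2 was called lower in MeWo (adjusted p = 0.00238).

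**Figure D2:**
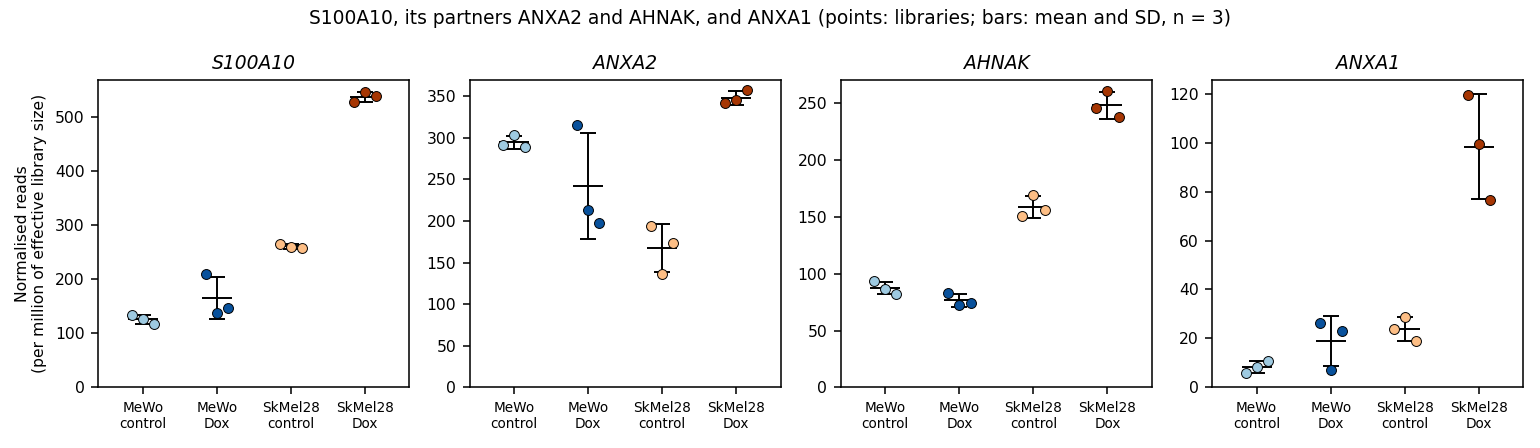
Normalised reads (per 1000000 of effective library size, linear axes from 0) of S100A10, of its partners ANXA2 and AHNAK, and of ANXA1 in the 12 libraries. Points are libraries and bars are mean and SD (n = 3). In SkMel28 the Dox libraries of all 4 genes lie above the control libraries, and in MeWo the groups overlap in ANXA2, AHNAK and ANXA1.

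S100A11 (chromosome 1, 152032506 to 152047907, minus strand) was the only one of the 8 genes called lower with Dox. It was at 77.7, 72.7 and 73.5 in MeWo control and at 62.9, 55.7 and 43.4 in MeWo Dox. In SkMel28 it was at 98.8, 84.4 and 88.9 in control and at 99.4, 85.6 and 104 with Dox. All MeWo Dox libraries were below the MeWo controls, while the SkMel28 groups overlapped. S100A11 fell by 0.48 on the log2 scale in MeWo (SE 0.14, adjusted p = 0.0293), and this call was lost under 7 of 23 alternatives, with scaling to the spike-ins giving a difference of -0.21. Without replicate 1 of MeWo Dox it was -0.59. In SkMel28 the difference was 0.085 (95% interval -0.21 to 0.38), and the difference between the Dox changes of the lines was not called (adjusted p = 0.0940). Of the 8 annotated pseudogenes of S100A11 none was listed, and how reads with several matches were treated is not given in the sources used here. ANXA1, whose product is the partner of S100A11, rose in SkMel28 from 23.8 ± 4.89 (SD) to 98.4 ± 21.5, by 2.001 ± 0.34 (adjusted p = 0.000821). In MeWo the ANXA1 libraries overlapped (8.30 ± 2.32 and 18.9 ± 10.3, adjusted p = 0.0673).

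S100A1 and S100A13 lie across each other on opposite strands. S100A1 is best known from heart and skeletal muscle, where it binds the calcium release channel and the calcium pump, and S100A13 takes part in the release of FGF1, which lacks a signal peptide. In GENCODE 44, S100A1 spans 153627926 to 153632039 on the plus strand of chromosome 1. There S100A13 spans 153618787 to 153631360 on the minus strand, so that 3435 bases are shared. By this annotation 1 of 5 S100A1 transcripts and 0 of 6 S100A13 transcripts end inside the shared stretch. The distal RefSeq start of S100A13, used in the promoter search below, lies beyond this span, and from it the shared stretch would be longer. The strand used for counting is not given in the sources used here, and reads of the pair from the shared bases cannot be told apart without it.

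S100A13 was at 241, 233 and 217 in MeWo control and at 296, 568 and 537 in MeWo Dox. In SkMel28 it was at 203, 228 and 248 in control and at 163, 168 and 214 with Dox. The MeWo groups did not overlap, with replicate 1 of MeWo Dox close to the controls, and the SkMel28 groups overlapped. S100A13 rose by 0.96 ± 0.19 in MeWo (adjusted p = 0.00173), or by 1.26 without replicate 1. In SkMel28 the difference was -0.32 (95% interval -0.72 to 0.074, adjusted p = 0.324). The change in MeWo exceeded that in SkMel28 by 1.28 ± 0.27 (adjusted p = 0.00805).

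S100A1 was at 19.0, 17.5 and 21.4 in MeWo control and at 26.2, 50.03 and 50.1 in MeWo Dox. In SkMel28 it was at 88.3, 108 and 79.7 in control and at 65.3, 59.8 and 91.0 with Dox. As for S100A13, replicate 1 of MeWo Dox was the nearest to the controls, and the SkMel28 groups overlapped. S100A1 rose by 1.03 ± 0.22 in MeWo (adjusted p = 0.00359), or by 1.34 without replicate 1. In SkMel28 the difference was -0.36 (95% interval -0.83 to 0.10, adjusted p = 0.351). The change in MeWo exceeded that in SkMel28 by 1.39 ± 0.31 (adjusted p = 0.0130).

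The differences between the Dox changes of the lines in S100A1 and S100A13 were called under all 22 alternatives. Both rises in MeWo were lost when MeWo was fitted alone (adjusted p = 0.0877 and 0.0867). The 500 bases at the 3′ end of S100A1 held 58.8% G and C, above 88.2% of genes, and those of S100A13 held 53.7%. Of the other genes called higher in MeWo, S100A6 held 57.6%, S100A16 56.3% and S100B 51.2%. Within MeWo Dox, values rose with GC content by 0.26 and 0.11 log2 units per 10% in replicates 2 and 3 and by -0.018 in replicate 1. With this trend removed the differences were 1.13 for S100A1 and 1.13 for S100A13, and both were called. The rises of S100A6, S100A16 and S100B in MeWo also kept their calls. The ratio of S100A1 to S100A13 lay between 0.0750 and 0.0987 in the MeWo libraries and between 0.321 and 0.474 in the SkMel28 libraries, whose control groups overlapped in S100A13.

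**Figure D3:**
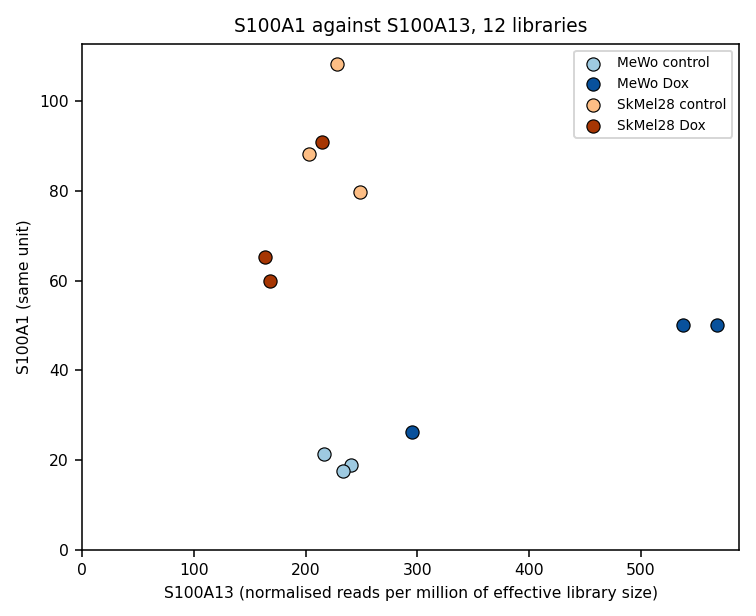
S100A1 against S100A13 (normalised reads per 1000000 of effective library size, linear axes from 0), 1 point per library, colored by group. Replicates 2 and 3 of MeWo Dox lie to the right of the MeWo controls with replicate 1 between, and the SkMel28 libraries lie above all MeWo libraries in S100A1.

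S100A16, a widely expressed member whose amino-terminal loop binds calcium poorly, was largely a MeWo transcript in these data. The gene spans 153606886 to 153613145 on chromosome 1 (minus strand). It was at 49.8, 59.8 and 55.4 in MeWo control and at 106, 87.2 and 85.4 in MeWo Dox. SkMel28 control libraries held 6, 5 and 3 reads of S100A16 and SkMel28 Dox libraries held 4, 3 and 6, or 1.00 to 1.81 normalised reads. The MeWo groups did not overlap, and SkMel28 values were near the floor of 3 reads, so that a fall there was not detectable at this depth. The SkMel28 difference was -0.090 (95% interval -0.53 to 0.35, adjusted p = 0.850), on a scale that compresses values this low. S100A16 rose by 0.74 ± 0.21 in MeWo (adjusted p = 0.0205), or by 0.64 without replicate 1 of MeWo Dox. This call was lost under 4 of 23 alternatives (adjusted p up to 0.0814). The difference between the Dox changes of the lines was 0.83 and was not called (adjusted p = 0.0888). It sets the MeWo change against one in SkMel28 whose size, up or down, is compressed at such low values.

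S100P binds ezrin and IQGAP1 and is best known from placenta and gastrointestinal carcinoma. It lies on chromosome 4 (6693878 to 6697170, plus strand). It was sparse, with 2 to 26 reads per library. MeWo Dox replicate 2 held 26 reads and SkMel28 control replicate 1 held 22, and no other library held more than 14. No comparison of S100P was called (adjusted p from 0.548 to 0.852), and the 95% interval of the MeWo difference ran from -0.55 to 1.52. The difference itself was 0.48, or 0.63 without replicate 1 of MeWo Dox and -0.055 without replicate 2, the library with 26 reads.

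**Figure D4:**
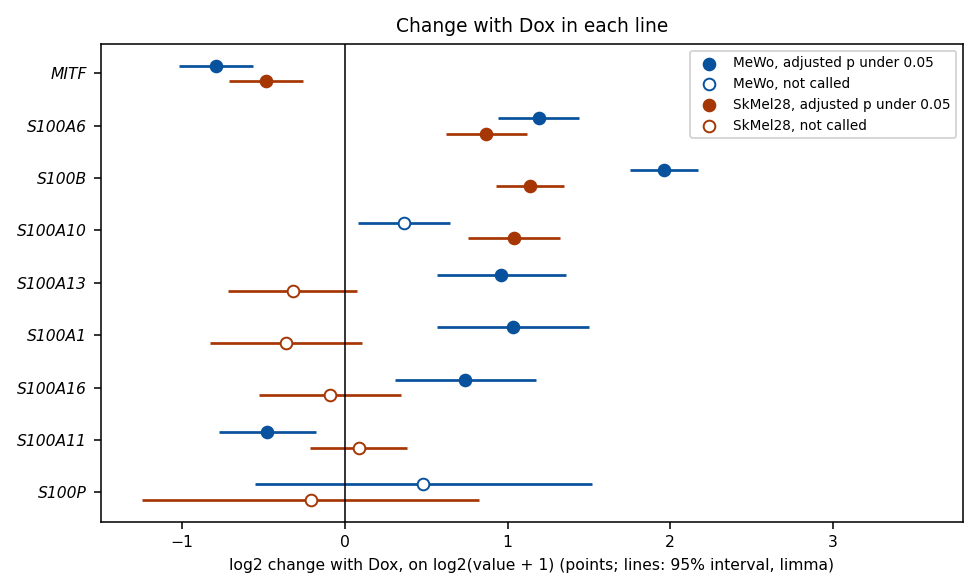
Change with Dox (log2 of value + 1, horizontal axis) of MITF and the 8 S100 genes in MeWo (blue) and SkMel28 (brown). Points are fitted differences, lines are 95% intervals from limma, filled points were called and open points were not. MITF lies below 0 in both lines, S100B and S100A6 lie above 0 in both, and S100A1 and S100A13 were called above 0 in MeWo and not called in SkMel28.

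Counted over the family, 6 of the 8 genes were called with Dox in MeWo (5 higher and 1 lower), while 16.7% of all listed genes were called (8.58% higher and 8.12% lower). In SkMel28, 3 of the 8 were called, all higher, beside 10.9% of all genes (5.88% higher and 5.04% lower). The median of the 8 log2 differences was 0.85 in MeWo and -0.0022 in SkMel28, where that of all genes was 0.00 and 0.0029. S100B and S100A6 were the members called in both lines, each time higher. Over all genes 4.08% were called in both lines, 3.7% in the same direction and 1.91% higher in both. The difference between the Dox changes of the lines was called for 4 of the 8, beside 7.09% of all genes (3.71% greater and 3.38% less in MeWo). The change was greater in MeWo for S100A1, S100A13 and S100B and greater in SkMel28 for S100A10. Control and Dox libraries did not overlap for 7 of the 8 genes in MeWo (all except S100P) and for 3 in SkMel28, against 28.8% and 32.3% of all genes.

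The control libraries of the lines were also compared with each other. Without Dox, 5 of the 8 genes were called between the lines, 3 higher and 2 lower in SkMel28, as were 51.4% of all genes (26.6% higher and 24.8% lower). The control libraries of the lines did not overlap for 6 of the 8 (all except S100A13 and S100P), against 62.1% of all genes. S100B was higher in SkMel28 by 2.9998 ± 0.099 (adjusted p = 2.11e-13), S100A1 by 2.19 ± 0.22 (adjusted p = 2.72e-07) and S100A10 by 1.05 ± 0.13 (adjusted p = 4.17e-06). S100A6 was lower in SkMel28 (log2 difference -2.47 ± 0.12, adjusted p = 2.00e-11), as was S100A16 (-4.51 ± 0.21, adjusted p = 1.16e-11). With 3 to 6 reads of S100A16 in SkMel28 the size of its difference depended on the pseudocount and the test, from -5.18 to -3.21. S100A13 (95% interval -0.42 to 0.37), S100A11 (-0.024 to 0.58) and S100P (-1.31 to 0.76) were not called. These 5 calls were kept under all 22 alternatives.

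Reads at transcript ends do not scale with transcript length, and the levels of the genes were set side by side on this basis. Reads with several matches, the shared bases of S100A1 and S100A13 and GC content could still affect levels between genes, which was not tested. In MeWo control the order by group mean was S100A6 (1342 ± 49.4), S100A13 (230 ± 12.3), S100A10 (126 ± 8.32), S100A11 (74.6 ± 2.72), S100B (62.9 ± 3.27), S100A16 (55.0 ± 5.02), S100A1 (19.3 ± 1.96) and S100P (2.89 ± 1.51). The neighbours S100B and S100A16 overlapped in their libraries, and the others in this order did not. In MeWo Dox S100B moved to the third place (248 ± 5.74), above S100A10 (164 ± 39.0). S100A16 (92.8 ± 11.4) then also stood above S100A11 (54.0 ± 9.88), with no overlap of their libraries. In SkMel28 control the order was S100B (510 ± 27.7), S100A10 (260 ± 4.08), S100A6 (242 ± 12.8), S100A13 (227 ± 22.6), S100A1 (92.1 ± 14.6), S100A11 (90.7 ± 7.39), S100P (2.72 ± 2.96) and S100A16 (1.47 ± 0.280). S100A6 and S100A13 overlapped, as did S100A1 and S100A11, and S100P and S100A16. With Dox the order in SkMel28 differed only in that S100A11 (96.4 ± 9.71) stood above S100A1 (72.0 ± 16.6), with overlapping libraries.

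Summed over the 8 genes, MeWo libraries held 1833 to 1963 normalised reads in control and 3457 to 4694 with Dox. SkMel28 libraries held 1409 to 1442 in control and 2350 to 2593 with Dox. The summed level was thus higher with Dox in both lines with no overlap, and it was dominated by different genes. S100A6 made up 70.0 to 75.3% of the sum in MeWo and 15.99 to 18.4% in SkMel28. In MeWo, S100B made up 3.23 to 3.34% of the sum in control and 5.35 to 7.26% with Dox. Its part in SkMel28 was 34.2 to 37.6%, and 45.1 to 46.1% with Dox.

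**Figure D5:**
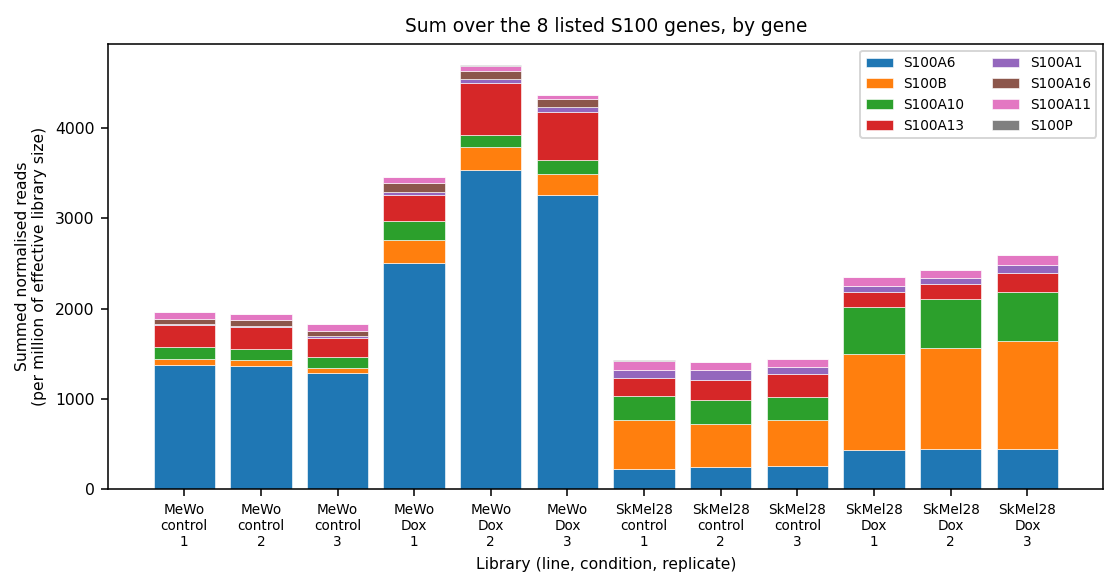
Normalised reads (per 1000000 of effective library size) summed over the 8 S100 genes in each of the 12 libraries, with the part of each gene as a colored block. The sum is higher with Dox in each line, with S100A6 as the main block in MeWo (at least 70.0%) and S100B as the main block in SkMel28 (at least 34.2%).

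Genes around the family were examined in lists. Of 11 other S100 family symbols only S100PBP, which encodes a binding protein of S100P, was listed, and it was not called with Dox (adjusted p = 0.0701 and 0.220). Of 13 annexins 9 were listed. In MeWo ANXA5, the phosphatidylserine-binding annexin, fell from 506 to 259 by group means (log2 difference -1.02, adjusted p = 0.00917) and ANXA6 from 206 to 150.0 (-0.46, adjusted p = 0.0186), while none was called higher. In SkMel28 ANXA1 and ANXA2 rose as above and none was called lower. In each line 22.2% of the listed annexins were called, against 16.7% of all genes in MeWo and 10.9% in SkMel28. The calls of ANXA5 and ANXA6 in MeWo were lost under 3 and 6 of 23 alternatives, and those of ANXA1 and ANXA2 in SkMel28 under none. The median over annexins was -0.31 in MeWo and 0.34 in SkMel28, where that of all genes was 0.00 and 0.0029. The change in ANXA5 was lower in MeWo than in SkMel28 (-1.66, adjusted p = 0.00913), also under all 22 alternatives.

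Of 31 known binding partners and receptors of S100 proteins 25 were listed. In MeWo 3 were called higher and 3 lower (24.0% of the list, against 16.7% of all genes), and in SkMel28 3 of the 25 were called, against 10.9% of all genes. PPFIBP1 (liprin beta-1, a target of S100A4) and SUGT1 (a target of S100A6) rose by 0.62 and 0.38 (adjusted p = 0.00113 and 0.0487). IQGAP1, a scaffold bound by S100B and S100P, fell by 0.75 (adjusted p = 0.0162), and MYH10, a nonmuscle myosin heavy chain, fell by 0.48 (adjusted p = 0.00914). The remaining called genes had MeWo means under 10 in control and with Dox. They were FGF1 (higher, 0.108 and 2.97) and STK38L (lower, 8.18 and 4.57). IQGAP1 was at 123, 128 and 138 in MeWo control and at 121, 59.5 and 62.7 with Dox, so that replicate 1 of MeWo Dox was close to the controls. In SkMel28, DLC1 (whose product is bound by S100A10), AHNAK and MYH10 rose, DLC1 by 1.01 (adjusted p = 0.0164) and MYH10 by 0.43 (adjusted p = 0.0253), and none was called lower. MYH10 thus went in opposite directions, and the difference between the Dox changes of the lines was called (-0.91, adjusted p = 0.00332). The call of IQGAP1 in MeWo was lost under 7 of 23 alternatives, and that of MYH10 under 3 in MeWo and 8 in SkMel28.

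Of 36 other EF-hand calcium proteins 29 were listed. In MeWo 17.2% of them were called and in SkMel28 3.45%, against 16.7% and 10.9% of all genes. In MeWo NUCB2, SDF4 and RCN1 rose by 0.87, 0.79 and 0.40, and CHP1 and NCALD fell by 0.53 and 0.72 (adjusted p from 0.000548 to 0.0499). In SkMel28 CIB1 fell by 0.61 (adjusted p = 0.0164) and none was called higher. The calls of SUGT1, RCN1 and NCALD in MeWo were each lost under more than 10 of 23 alternatives. Among 22 other listed genes within 500 kb of the chromosome 1 members, SLC39A1 rose in MeWo by 0.90 (adjusted p = 0.00345), and RAB13, DENND4B and SLC27A3 fell in SkMel28 by 0.68, 0.64 and 0.55 (adjusted p = 0.00268, 0.0203 and 0.0130). Thus 1 of 22 neighbours was called in MeWo (4.55%) and 3 in SkMel28 (13.6%), against 16.7% and 10.9% of all genes, and their median difference was -0.070 and -0.12.

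The promoters were searched for the E-box letters that MITF is known to recognise. These were CACGTG, the same on both strands, as well as the related CATGTG, which on the opposite strand reads CACATG. The search ran from 250 bases before to 50 bases after each RefSeq start (GRCh38.p14). Entries were found for 7 of the 8 listed genes, with 10 windows in all. S100B had no entry, so its promoter was not searched. CACGTG was in 0 of the 10 windows, as against 7.26% of 35116 promoters. CATGTG was in 3 of the 10, as against 11.1% of all promoters. These 3 sites follow with 12 bases on either side, E-box in capitals, because no other window of a listed member held either motif.
S100A16 (start within the gene, 231 bases before it, chr1:153609569-153609598, minus strand): aaatacattggcCATGTGtaagaaaaacta
S100A13 (distal start, 73 bases before it, chr1:153634417-153634446, minus strand): cgtagctatgtcCACATGccaccaccccct
S100P (107 bases before the start, chr4:6693759-6693788, plus strand): atcagaactgagCACATGaatggggagggg

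Of the genes with such a site, S100A16 and S100A13 were called in MeWo, and S100P in neither line. S100A6, S100A10, S100A1 and S100A11 had neither motif in these windows. Of these, S100A6, S100A1 and S100A11 were called in MeWo, and S100A6 and S100A10 in SkMel28. Whether motif and call go together was not tested. S100A10, which rose in SkMel28, is shown as the example of a window without the motifs, with the 250 bases before its start.
S100A10 (chr1:151993860-151994109, minus strand): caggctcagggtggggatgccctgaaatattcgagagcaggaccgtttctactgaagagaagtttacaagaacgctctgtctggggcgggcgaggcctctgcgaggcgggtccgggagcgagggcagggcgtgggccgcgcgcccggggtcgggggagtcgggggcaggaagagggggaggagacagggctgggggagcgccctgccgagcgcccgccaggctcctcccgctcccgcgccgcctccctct
A match is a run of letters and was not tested as a binding site, and the absence of a match says nothing of sites elsewhere.

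Finally, the genes most like each member were taken by Pearson correlation of log2(value + 1) over the 12 libraries, among 8073 genes with a mean of at least 10. The libraries fall into 4 groups, so that the coefficients mostly describe group means and carry no p. S100B was nearest to NFATC2 (0.99), a transcription factor whose means were 4.52, 52.4, 176 and 645 in MeWo control, MeWo Dox, SkMel28 control and SkMel28 Dox. S100A10 was nearest to PON2 (0.99), followed by HLA-DRA (0.99) and SPARC (0.98, means from 206 in MeWo control to 3259 in SkMel28 Dox). S100A6 was nearest to COL18A1 (1.00), the precursor gene of endostatin, with means of 30.9 and 118 in MeWo and 3.24 and 8.36 in SkMel28. S100A16 was nearest to ITM2A (1.00), which was also close to absent in SkMel28 (means of 3.34 and 2.27, against 194 and 301 in MeWo). S100A13 was nearest to PTMA (0.98), S100A1 to TNPO2 (0.98) and S100A11 to PIR (0.96), while S100P, with its few reads, reached 0.79 at most.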

How the data were processed

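The authors deposited 1 table of normalised signal for 12 libraries (QuantSeq Forward 3′ end reads), with 12616 genes and 67 spike-in RNAs. The submitters' processing notes name FastQC 0.11.7, cutadapt 2.8, STAR 2.5.1b, edgeR and hg38. The counting tool, annotation and strand are not given in the sources used here. No listed feature had fewer than 3 libraries at a value of 1 or more, so lower genes had been removed before deposition. In each library 100% of the deposited signal values were whole multiples of the value of 1 read (within 0.001 reads), which gave back the reads.

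Groups came from the labels. The log2 of (value + 1) was fitted by limma 3.58.1 (R 4.3.3, eBayes with a mean-variance trend) with 4 group means over the 12 libraries. Contrasts were two-sided: the Dox effect of each line, the MeWo effect minus the SkMel28 effect, and SkMel28 control minus MeWo control. Adjustment was by Benjamini-Hochberg across the 12616 genes. A count test on the recovered reads, the quasi-likelihood test of edgeR 4.0.16, called 2045 genes in MeWo and 1422 in SkMel28, against 2107 and 1378. Other alternatives were DESeq2 1.42.0, upper-quartile and spike-in scaling, pseudocounts of 0.1 and 5, a filter on values (5 or more in 3 or more libraries), a fit lacking the trend, a replicate block, each line alone, and leaving out each library. Removal of the trend in GC content (92.3% of genes with a GC value) was chosen after seeing the data.

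The members, lists and naming rule were chosen with earlier results of these data known. All listed members are named. From each list the naming rule took called genes whose higher group averaged 10 or more, at most 3 per direction and line. Symbols were matched to GENCODE 44 (92.4% of genes). Floors of 3 reads cover counting error only, as reads were not counted by molecular identifiers, while the 95% intervals are those of limma and rest on the spread between libraries.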

Additional observations from a re-analysis of the deposited data

Results flagged for a closer look

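For 12 of the named genes the change with Dox in MeWo differed from that in SkMel28 by the test of the difference itself (limma, adjusted p under 0.05). Among the S100 genes the log2 difference, MeWo minus SkMel28, was 1.39 for S100A1, 1.28 for S100A13, 0.82 for S100B and -0.68 for S100A10. Among partner genes it was -1.38 for ANXA2, -1.66 for ANXA5, -0.83 for AHNAK, -0.91 for MYH10 and -0.98 for IQGAP1. Among the remaining EF-hand and neighbouring genes it was 1.04 for NUCB2, 0.85 for SDF4 and 0.74 for RAB13. The calls of S100A10, IQGAP1, SDF4 and RAB13 were each lost under at least 10 of 22 alternatives, and those of S100A1, S100A13, S100B, ANXA2, ANXA5 and NUCB2 under none. By the labels the line changes together with the medium, and their parts cannot then be told apart.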

How the results depend on the processing

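Over 23 alternatives, 678 of 715 member results kept their side of the threshold (666 with the same sign), 28 lost the call and 9 gained it. The sign turned in 12, in S100P, S100A11, S100A13 and S100A16, and 0 of these were called in either fit. With each line fitted alone, 813 of all genes were called in MeWo (2107 otherwise) and 3 of the 8 members in place of 6, while 1558 were called in SkMel28 (1378 otherwise). The difference between the Dox changes of the lines was called for 1524 genes with spike-in scaling and 554 without the mean-variance trend, against 894. The cause was not tested for any of these. Leaving out 1 library gave 1281 to 3913 genes in MeWo (4 to 7 members) and 784 to 2042 in SkMel28 (3 to 4). It gave 449 to 3115 for the difference between the Dox changes (3 to 6) and 5685 to 7145 between the lines without Dox (5 in each). The highest counts, 3913, 2042 and 3115, were without replicate 1 of MeWo Dox. Without it S100A13 was also called lower in SkMel28 (adjusted p = 0.0449) and the differences of S100A6 and S100A11 were called.

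Spike-in scaling shifted the median of all genes by 0.22 in MeWo, -0.082 in SkMel28, 0.32 in their difference and 0.13 between the lines. Genes called higher and lower then numbered 2097 and 383 in MeWo (1082 and 1025 otherwise), 394 and 533 in SkMel28 (742 and 636), 1362 and 162 for the difference (468 and 426) and 3630 and 2231 between the lines (3352 and 3133). DESeq2 gave 629 and 365 for the difference. Against the shifted median S100A11 in MeWo (-0.21) remained below and S100A10 (0.63) above.

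Deviations from group means correlated from -0.31 to 0.29 between same-numbered control and Dox libraries, and from -0.35 to 0.34 between differently numbered ones. With 3 libraries per group this cannot show whether the numbers pair the libraries, and the main fit used no pairing. With the replicate block 1821 genes were called in MeWo, 1070 in SkMel28 and 641 for the difference between the Dox changes. Between the lines without Dox 4321 were called (6485 without the block). With the block this last contrast compares levels fitted for replicate 1, not group means, so these counts are of different quantities. The block took the call of S100A16 in MeWo (adjusted p = 0.0505) and changed no other call of a member.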

Other observations

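Other values of the lineage moved beside the S100 genes. All 9 melanocytic markers, the hairpin's target MITF among them, were called in MeWo with Dox, 7 lower and 2 higher. In SkMel28 4 were called lower, again with MITF among them. Over all genes 16.7% were called in MeWo and 10.9% in SkMel28. PMEL, a structural protein of the melanosome, went from 7450 to 3261 by group means in MeWo and from 6562 to 2569 in SkMel28. DCT, an enzyme of pigment synthesis, was among those called higher in MeWo (950 to 1790) and was at 1093 and 919 in SkMel28. S100B, used with these genes as a marker of melanocytic tumors, was higher with Dox in both lines while PMEL was lower in both.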
